A study of Mus musculus with 12 samples.

Results

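The genes described here encode enzymes and helpers that modify, fold, trim and crosslink collagen. The 10 members were taken by matching the gene symbol in the deposited counts to a list of names, and they were 10 of the 36186 genes counted. They were P4ha1, Plod1, Plod2 and Serpinh1, which act inside the cell, Bmp1 and Pcolce, which act on procollagen, and the lysyl oxidases Lox, Loxl1, Loxl2 and Loxl3.

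RNA was sequenced from whole kidneys of mouse embryos at E18.5, in 12 libraries of 4 genotypes with 3 libraries each. The mice carried frameshift mutations of Hoxa9, Hoxa10 and Hoxa11 and of Hoxc9, Hoxc10 and Hoxc11, made by recombineering in bacterial artificial chromosomes, on a mixed background that the study's methods give as 129/CD1. The groups were wild type, Hoxa-/- Hoxc+/- (homozygous for the Hoxa mutations and heterozygous for the Hoxc mutations), Hoxa+/- Hoxc-/- (the reverse) and Hoxa-/- Hoxc-/- (homozygous for both). The labels name no mutation of a Hoxd gene. For the Hoxa-/- Hoxc-/- kidneys the sample labels give all of Hoxa9, Hoxa10 and Hoxa11 as homozygous mutant, whereas the study's text describes sequenced mutant kidneys that kept at least 1 wild type Hoxa11 allele, without naming the library of each, and reports no kidneys at this stage in embryos homozygous for all of these mutations. Nothing in the labels says whether libraries of a group came from separate litters, and p-values measure the spread between these libraries.

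Collagen chains are hydroxylated on proline and lysine in the endoplasmic reticulum, where prolyl hydroxylation stabilises the triple helix and the chaperone Serpinh1 (Hsp47) binds the folded procollagen. After secretion the C-propeptide is removed by Bmp1 and related proteinases, with Pcolce as an enhancer, and lysyl oxidases then oxidise lysine residues of collagen and elastin so that crosslinks form between molecules. In the kidney these genes are known for their activity in stroma, vessel walls and fibrosis.

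Total counts on genes ranged from 28616877 to 47067903 per library, with a median of 39328488. At these depths 3 counts corresponded to between 0.0637 and 0.105 CPM (counts relative to library size), and every member lay above 28 CPM in every library. The shallowest library, Hoxa-/- Hoxc+/- 20, stood apart from the rest. Its median correlation of log2 CPM with the other libraries, across 13237 genes, was 0.923, against medians from 0.972 to 0.985 for the other 11 libraries. Comparisons that use it were therefore also made without it. All Hoxa+/- Hoxc-/- libraries came from a sequencing run that held none of the other 9, so that for this genotype mutation and run cannot be told apart. Sex was unequal between the groups, since Xist was high in Hoxa-/- Hoxc+/- 31 and 33, Hoxa+/- Hoxc-/- 110 and Hoxa-/- Hoxc-/- 27 and 29, and at most 6 counts in the other 7 libraries.

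RNA of the mutated Hox genes remained present in every library, which says nothing for or against the labels because a frameshift need not remove the transcript. Hoxa10 lay between 125 and 165 CPM in wild type and between 100.3 and 112 CPM in Hoxa-/- Hoxc-/- kidneys, and Hoxc10 between 50.2 and 66.9 CPM and between 29.1 and 37.8 CPM. All 13 kidney markers, from nephron progenitors to collecting duct, passed the filter on low counts in each comparison with wild type. They summed to between 2612 and 3769 CPM in wild type, 1696 to 3854 CPM in Hoxa-/- Hoxc+/-, 2778.5 to 3880.5 CPM in Hoxa+/- Hoxc-/- and 3317 to 4836 CPM in Hoxa-/- Hoxc-/- libraries. The lowest of these sums was that of Hoxa-/- Hoxc+/- 20.

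Levels of different genes were compared per kilobase of exon, in the wild type libraries. Serpinh1 stood far above the rest, at 436 ± 37.8 CPM per kilobase (SD, n = 3). P4ha1 followed at 37.5 ± 4.03, Pcolce at 31.4 ± 2.41, Loxl1 at 28.4 ± 2.36 and Lox at 23.6 ± 3.18 CPM per kilobase. Plod2 had 23.5 ± 3.14, Plod1 20.4 ± 2.94, Loxl2 18.4 ± 1.45, Bmp1 10.6 ± 0.939 and Loxl3 6.69 ± 0.525 CPM per kilobase. From P4ha1 down to Loxl2 each gene overlapped the next in its range over the libraries, so the order of neighbours is not resolved. P4ha1 lay wholly above Loxl1 and every gene after it, Pcolce above Lox and every gene after it, Loxl1 above Plod1 and Loxl2, and Lox and Plod2 above Loxl2. Serpinh1 lay above this range, and Bmp1 and then Loxl3 lay below it, without overlap. In Hoxa-/- Hoxc-/- kidneys Lox had 65.8 and Pcolce 59.0 CPM per kilobase, above the 41.8 of P4ha1, and in Hoxa+/- Hoxc-/- kidneys Loxl2 had 40.4, next below Serpinh1. The members also differed in how far they ranged over the 12 libraries. The highest library had 4.85 times the CPM of the lowest for Lox, 3.62 times for Loxl2 and 2.32 times for Pcolce, but only 1.29 times for Bmp1 and 1.47 times for Loxl3.

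**Figure D1:**
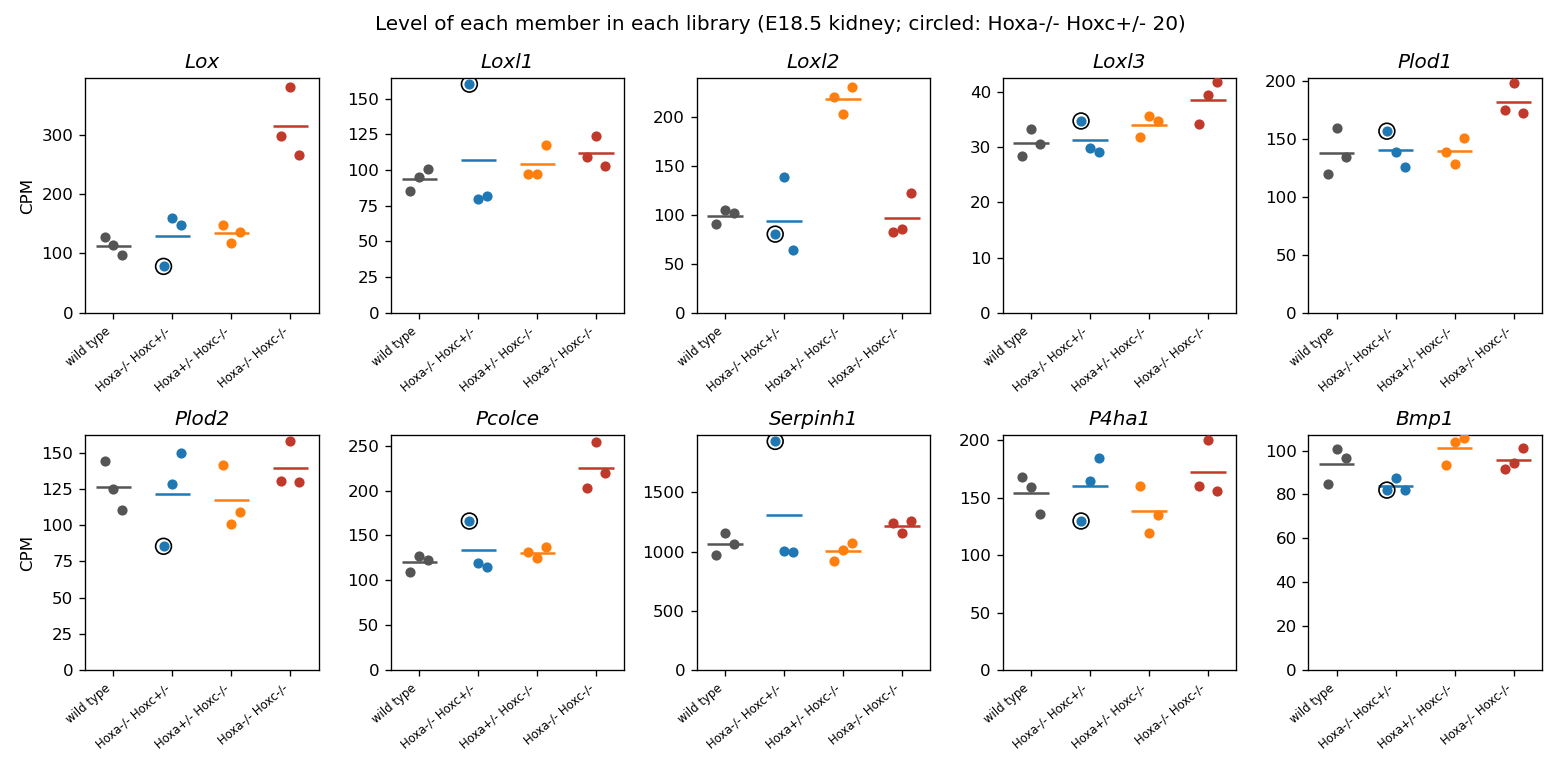
CPM of each of the 10 members in each library, with points for libraries, bars for group means and a circle around Hoxa-/- Hoxc+/- 20. Lox and Pcolce were highest in the Hoxa-/- Hoxc-/- libraries and Loxl2 in the Hoxa+/- Hoxc-/- libraries, while Serpinh1 and Loxl1 had their highest value in the circled library.

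The comparison of Hoxa-/- Hoxc-/- with wild type kidneys used 6 libraries of the same run, and by the text of the study the mutants may have kept Hoxa11 function. Tested by quasi-likelihood in edgeR, with p adjusted over 15839 genes by the Benjamini-Hochberg method, 2 of the 10 members rose at an adjusted p below 0.05, Lox and Pcolce, and none fell. Across all genes tested 13.7% passed in either direction and 6.31% rose. For 5 members, Lox, Loxl1, Loxl3, Plod1 and Pcolce, each mutant library lay above each wild type library, which held for 17.3% of all genes tested, and for the other 5 the groups overlapped. The median log2 fold change was 0.22 over the members and -0.01 over all genes tested. In bulk tissue, more RNA of a gene per cell and more cells that express it cannot be told apart. DESeq2 on the same genes called 4 members, adding Plod1 and Loxl3, and 21.3% of all genes. The number of genes called across the genome depended on single libraries, with 3386 without wild type 30, 535 without wild type 37, 633 without wild type 55, 793 without mutant 24 and 1101 without mutant 27, against 2171 with all 6. Lox and Pcolce passed in each of these fits.

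**Figure D2:**
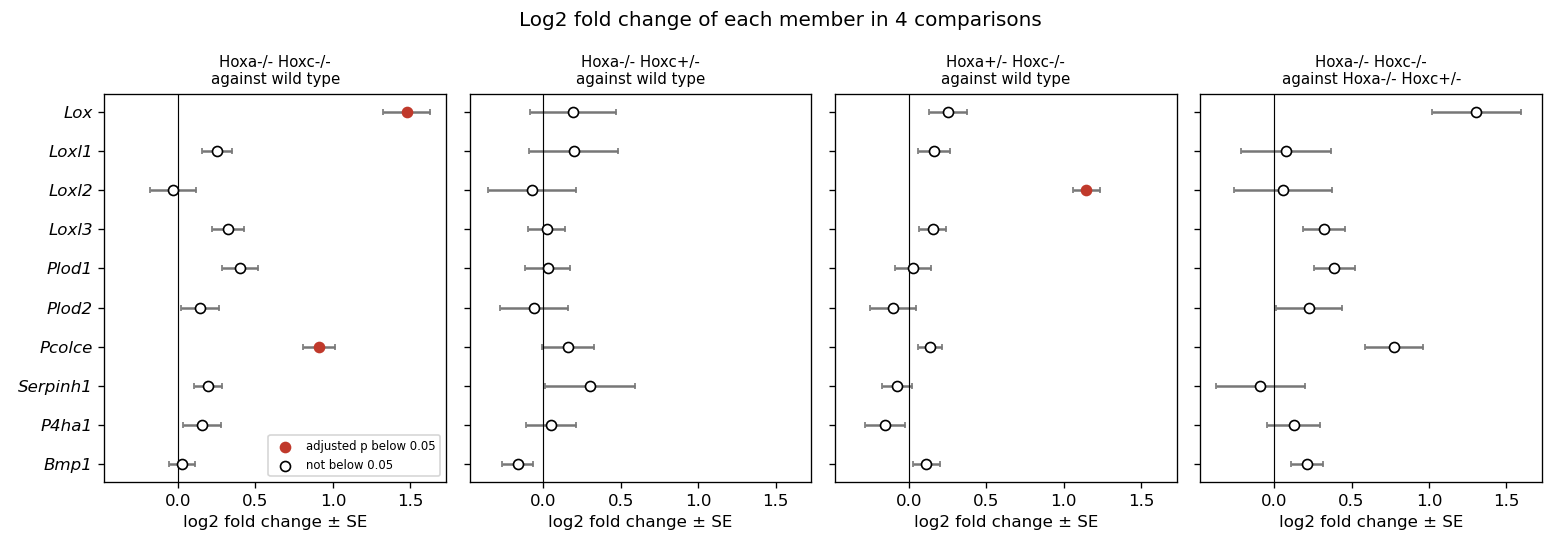
Log2 fold change of each member in 4 comparisons, with bars of 1 standard error and filled points for those at an adjusted p below 0.05 by edgeR. Lox and Pcolce stand at 1.48 and 0.91 in Hoxa-/- Hoxc-/- against wild type, and Loxl2 at 1.15 in Hoxa+/- Hoxc-/- against wild type.

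Among the hydroxylases, P4ha1 encodes a catalytic subunit of prolyl 4-hydroxylase (Entrez 18451, chromosome 10 of mm10 from 59323197 to 59373304). It lay between 136 and 168 CPM in wild type and between 156 and 200.2 CPM in Hoxa-/- Hoxc-/- kidneys, overlapping, with a log2 fold change of 0.16 (SE 0.12, adjusted p = 0.404 by edgeR). Plod2, a lysyl hydroxylase of collagen telopeptides (Entrez 26432, chromosome 9, 92539636 to 92608428), also overlapped, with a log2 fold change of 0.14 (SE 0.12). Plod1 (Entrez 18822, chromosome 4, 147909753 to 147936776) hydroxylates lysine in the triple helix. Its level was 119.8, 159 and 135 CPM in wild type libraries 30, 37 and 55 and 175, 198 and 173 CPM in mutants 24, 27 and 29. The mutants were all above the wild type libraries, the nearest pair being wild type 37 and mutant 29. Its log2 fold change of 0.40 (SE 0.11) missed the threshold by edgeR (adjusted p = 0.0569), and passed by DESeq2 (adjusted p = 0.0121) and in an edgeR fit of all libraries except Hoxa-/- Hoxc+/- 20 (adjusted p = 0.026), over a range from 0.0121 to 0.134 in 9 alternatives.

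Serpinh1, the collagen chaperone (Entrez 12406, chromosome 7, 99345375 to 99353239), was the most abundant member in every library. It had 973, 1157 and 1065 CPM in wild type and 1241, 1153 and 1262 CPM in Hoxa-/- Hoxc-/- libraries. Mutant 27 lay just below wild type 37, and the log2 fold change was 0.19 (SE 0.09, adjusted p = 0.189 by edgeR). Its highest value, 1931 CPM, was that of Hoxa-/- Hoxc+/- 20, while the other libraries of that genotype had 1001 and 998 CPM. Serpinh1 therefore had a coefficient of variation of 41.0% in that group and of 4.73% to 8.68% in the other groups.

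The members include targets of hypoxia-inducible factors by background knowledge (P4ha1, Plod2 and Lox among them), and the mutated genes are posterior Hox genes. The first 250 bases of each promoter sequence were therefore searched on both strands for ACGTG (reverse complement CACGT), the core of the hypoxia response element. They were also searched for TTTAT (reverse complement ATAAA), a core recognised by posterior Hox proteins. Of the members 4 were in the promoter table of RefSeq on GRCm38.p6, and the lysyl oxidases, Plod2 and Bmp1 were not. Only 151 of the 250 bases for P4ha1 and 132 for Pcolce lay outside the annotated gene. ACGTG was found for Serpinh1 and P4ha1, the latter within the annotated gene and not printed, and in 16.6% of 32851 promoters. TTTAT was found for Plod1 alone, and in 37.3% of promoters. A match is a description of letters and not of a bound site. The sequences of Plod1 and Serpinh1 are shown because they hold a match, and that of Pcolce because it was the only one of the 4 genes that rose. Each is on the minus strand and is printed 5′ to 3′ up to the base before the annotated gene, with the motif in capitals, at chr4:147936777-147937026 for Plod1, chr7:99353240-99353489 for Serpinh1 and chr5:137611523-137611654 for Pcolce. For Pcolce only the 132 bases outside the annotated gene are shown, and they hold neither motif.
Plod1: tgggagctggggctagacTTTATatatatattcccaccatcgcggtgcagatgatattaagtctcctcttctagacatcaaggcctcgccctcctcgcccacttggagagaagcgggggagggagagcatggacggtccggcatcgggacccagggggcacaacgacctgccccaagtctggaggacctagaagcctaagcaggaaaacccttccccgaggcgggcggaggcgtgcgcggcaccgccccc
Serpinh1: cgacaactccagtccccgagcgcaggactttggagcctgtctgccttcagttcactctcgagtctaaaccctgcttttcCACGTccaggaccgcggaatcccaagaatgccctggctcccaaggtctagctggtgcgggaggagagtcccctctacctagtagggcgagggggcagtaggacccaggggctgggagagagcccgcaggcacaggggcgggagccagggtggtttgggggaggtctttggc
Pcolce: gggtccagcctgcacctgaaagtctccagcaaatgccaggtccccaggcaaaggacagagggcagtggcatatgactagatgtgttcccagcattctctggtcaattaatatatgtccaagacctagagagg

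In procollagen processing, Bmp1, the C-proteinase (Entrez 12153, chromosome 14, 70474555 to 70520716), was the steadiest member. It stayed between 81.9 and 106 CPM in all 12 libraries, and its log2 fold change in Hoxa-/- Hoxc-/- kidneys was 0.02 (SE 0.08, adjusted p = 0.869 by edgeR). Pcolce (Entrez 18542, chromosome 5, 137605105 to 137611522), the enhancer of that cleavage whose upstream sequence is printed above, had 109.6, 128 and 123 CPM in wild type 30, 37 and 55, and 203, 254 and 219.6 CPM in mutants 24, 27 and 29. In Hoxa-/- Hoxc+/- libraries 20, 31 and 33 it had 166, 119.6 and 115.1 CPM, and in the Hoxa+/- Hoxc-/- libraries in label order it had 132, 125 and 137 CPM. All 3 Hoxa-/- Hoxc-/- libraries were above every other library. Pcolce rose 1.88-fold in Hoxa-/- Hoxc-/- against wild type kidneys, by 0.91 on the log2 scale (SE 0.10, adjusted p = 0.00362 by edgeR), and passed in 9 of 9 alternatives (adjusted p from 1.59e-12 to 0.0178) and 6 of 6 fits without a library. The annotation puts 1282 bases of Fbxo24 on the same strand within Pcolce, but Fbxo24 had at most 0.574 CPM. An antisense gene, Gm36266, overlaps Pcolce by 933 bases, and since the sources used here do not say whether counting used strand, reads of the pair cannot be told apart.

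Among the lysyl oxidases, Lox (Entrez 16948, chromosome 18, 52516060 to 52529867) had the widest range. An annotated antisense gene, AC161119.1, overlaps it by 1207 bases, and the same doubt about strand applies. Wild type 30, 37 and 55 had 127, 114.6 and 96.9 CPM and Hoxa-/- Hoxc-/- 24, 27 and 29 had 298, 379 and 266 CPM. Hoxa-/- Hoxc+/- 20, 31 and 33 had 78.3, 160.3 and 148 CPM, and the Hoxa+/- Hoxc-/- libraries in label order had 147, 118 and 136 CPM. The 3 Hoxa-/- Hoxc-/- libraries again exceeded all others, and the lowest library of all was Hoxa-/- Hoxc+/- 20. Within the mutants, the library without Xist (24) lay between the 2 with it. The rise was 2.78-fold, with an adjusted p of 0.00261 by edgeR, and it passed in 9 of 9 alternatives with log2 fold changes from 1.33 to 1.49 (adjusted p from 1.78e-18 to 0.0191) and in 6 of 6 fits without a library.

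The other lysyl oxidases did not pass in Hoxa-/- Hoxc-/- against wild type kidneys. Loxl1, which is needed for elastic fibre homeostasis (Entrez 16949, chromosome 9, 58287723 to 58313212), lay between 85.2 and 100.5 CPM in wild type and between 103 and 124 CPM in the mutants, without overlap (log2 fold change 0.25, SE 0.10, adjusted p = 0.116 by edgeR). Loxl3 (Entrez 16950, chromosome 6, 83034205 to 83052566), the least abundant member, lay between 28.5 and 33.3 CPM and between 34.3 and 41.8 CPM, also without overlap. Its log2 fold change of 0.32 (SE 0.10) had an adjusted p of 0.0764 by edgeR, 0.0384 by DESeq2 and 0.0307 in the edgeR fit of all libraries except Hoxa-/- Hoxc+/- 20, over a range from 0.0307 to 0.178 in 9 alternatives. Loxl3 shares 1297 bases with Htra2 on the opposite strand, which reached 36.3 CPM, so reads of these genes cannot be told apart if strand was not used.

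Loxl2 (Entrez 94352, chromosome 14, 69608692 to 69695834), which crosslinks collagen IV in basement membranes, had another pattern. It had 90.6, 106 and 102 CPM in wild type 30, 37 and 55 and 83.2, 86.1 and 122 CPM in Hoxa-/- Hoxc-/- 24, 27 and 29. In the Hoxa+/- Hoxc-/- libraries in label order it had 221, 204 and 231 CPM, and in Hoxa-/- Hoxc+/- 20, 31 and 33 it had 80.6, 139 and 63.9 CPM. Every Hoxa+/- Hoxc-/- library was above every library of the other genotypes, with and without Xist, and the other 3 groups overlapped. An annotated antisense gene, Gm27177, overlaps 74219 bases of Loxl2, so that reads from the pair cannot be told apart if strand was not used.

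Hoxa+/- Hoxc-/- was compared with wild type across the 2 runs. Of the 10 members 1 passed by edgeR, Loxl2, and it rose 2.21-fold (log2 fold change 1.15, SE 0.09, adjusted p = 0.00133), where 2.36% of 15902 genes passed and 0.836% rose. The same gene was the only member higher without overlap between the groups, which held for 11.4% of all genes tested. No member was lower without overlap, whereas 15.3% of all genes were. The rise of Loxl2 passed in 6 of 8 alternatives and in 6 of 6 fits without a library, and missed the threshold by edgeR with all 12 libraries in the fit (log2 fold change 1.14, SE 0.25, adjusted p = 0.0673) and with all 12 libraries and Xist as a covariate (1.09, SE 0.26, adjusted p = 0.123), over a range from 1.08e-26 to 0.123. The log2 fold changes of the other 9 members lay between -0.15 (P4ha1) and 0.25 (Lox), and the median of all 10 was 0.13, against 0.01 over all genes tested. Across the genome the number of genes called was 376 with all 6 libraries, 60 without wild type 37, 70 without wild type 55, 63 without mutant 110 and 99 without the mutant of the highest number, and Loxl2 passed in each of these.

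Hoxa-/- Hoxc+/- against wild type, within the same run, compares kidneys that differ in both Hoxa and Hoxc dose. None of the 10 members passed, and neither did any of 15789 genes by edgeR (0.0%, with 360 genes at an unadjusted p below 0.05). At an adjusted p below 0.05, DESeq2 called 22 genes and limma 1. With all 6 libraries every member overlapped between the groups, while 3.59% of all genes were higher and 4.78% lower without overlap. The log2 fold changes of the members ranged from -0.17 (Bmp1) to 0.30 (Serpinh1). Without library 20, 8 of 15967 genes passed (0.0501%), none of them a member. The Hoxa-/- Hoxc+/- libraries left, 31 and 33, had high Xist and no wild type library did. Sex and genotype therefore cannot be told apart without library 20. Of the members, Lox was then higher in each mutant than in each wild type library, as were 16.0% of all genes, and Loxl1 was lower, as were 17.0%. Lox then stood at 0.45 (SE 0.12, adjusted p = 0.431 by edgeR), against 0.19 (SE 0.28) with it, and Serpinh1 at -0.10 in place of 0.30.

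Hoxa-/- Hoxc-/- was compared with Hoxa-/- Hoxc+/- kidneys in the same run, and these groups may differ in Hoxa11 dose as well as in Hoxc dose. With all 6 libraries no member passed by edgeR, nor did any of 15764 genes (0.0%, with 1787 genes at an unadjusted p below 0.05), whereas limma on the deposited values passed 1 gene, and DESeq2 passed 554 genes (3.51%) and 2 members, Lox and Pcolce. Their edgeR log2 fold changes were 1.31 (SE 0.29, adjusted p = 0.224) and 0.77 (SE 0.19, adjusted p = 0.249). Both genes were higher in each double mutant library than in each Hoxa-/- Hoxc+/- library, as were Plod1 and Bmp1 and 9.94% of all genes. With library 20 left out, 7 members were higher without overlap, with Loxl1, Loxl3 and Serpinh1 added, as were 19.6% of all genes. Without library 20, edgeR passed 687 of 15986 genes (4.3%) and 4 members, all higher in Hoxa-/- Hoxc-/- kidneys. By edgeR these were Lox (1.05, SE 0.16, adjusted p = 0.0231), Pcolce (0.97, SE 0.11, adjusted p = 0.0156), Loxl1 (0.49, adjusted p = 0.0391) and Plod1 (0.48, adjusted p = 0.0447). With all 6 libraries, 0 of 8 nuclear-retained RNAs had a positive log2 fold change (median -0.81). Their sums were 155 to 184 CPM in Hoxa-/- Hoxc-/- and 254 to 383.5 CPM in Hoxa-/- Hoxc+/- libraries. Smooth muscle markers were positive in 6 of 6 cases (median 0.50) and stromal markers in 4 of 10 (median -0.12). None of these genes passed the threshold, and their part in the result was not tested.

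The direct comparison of Hoxa+/- Hoxc-/- with Hoxa-/- Hoxc-/- kidneys, added after the data were seen and made across runs, placed 4 members past the threshold by edgeR, where 19.1% of 15889 genes passed. Lox, Pcolce and Plod1 were lower and Loxl2 was higher in Hoxa+/- Hoxc-/- kidneys. The genes called numbered 3027 with all 6 libraries, and 888 without Hoxa+/- Hoxc-/- 110, 1722 without the highest-numbered library of that group and 1177 without Hoxa-/- Hoxc-/- 24. Nuclear-retained RNAs were higher in 8 of 8 cases (median 1.32), with sums of 383 to 504 CPM against 155 to 184 CPM. Malat1 led these sums except in Hoxa-/- Hoxc-/- 29, where Leng8 was higher. Smooth muscle markers were lower in 4 of 6 cases (median -0.64), with sums, led by Acta2, of 469.5 to 565 CPM against 765 to 884 CPM. Stromal markers were lower in 2 of 10 cases, and the part of these lists in the result was not tested. This comparison shares libraries with those above, and mutation and run cannot be told apart in it.

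The members were next set against the collagen they act on. The summed level of Col1a1, Col1a2 and Col3a1 was 3542 ± 110.3 CPM in wild type, 4533 ± 700.3 CPM in Hoxa-/- Hoxc+/-, 5454 ± 953 CPM in Hoxa+/- Hoxc-/- and 10997 ± 977 CPM in Hoxa-/- Hoxc-/- kidneys (SD, n = 3 each). Without library 20 the Hoxa-/- Hoxc+/- sums were 5057 and 3737 CPM. The log2 ratio of each member to this sum within a library does not depend on how libraries are scaled. Serpinh1 had log2 ratios of -1.89, -1.64 and -1.68 in wild type 30, 37 and 55 and of -3.01, -3.38 and -3.12 in Hoxa-/- Hoxc-/- 24, 27 and 29. The values of the groups did not overlap, and the same held for 94.5% of all genes tested, which were lower. A gene whose level is unchanged has a lower ratio where the divisor is higher. Over all genes the median difference was -1.64, with quartiles of -1.86 and -1.41. Of the 10 members 9 were lower, by differences from -1.68 for Loxl2 to -0.72 for Pcolce (exact permutation test, p = 0.1 each, the smallest that 3 against 3 libraries can give, adjusted p = 0.111). The difference of Serpinh1, -1.43, lay between the quartiles, and those of Pcolce and Lox were the nearest to 0 of the members. The log2 ratios of Lox were -4.83, -4.98 and -5.14 in wild type and -5.07, -4.98 and -5.37 in Hoxa-/- Hoxc-/- libraries, which overlapped (difference -0.16, exact permutation p = 0.4).

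**Figure D3:**
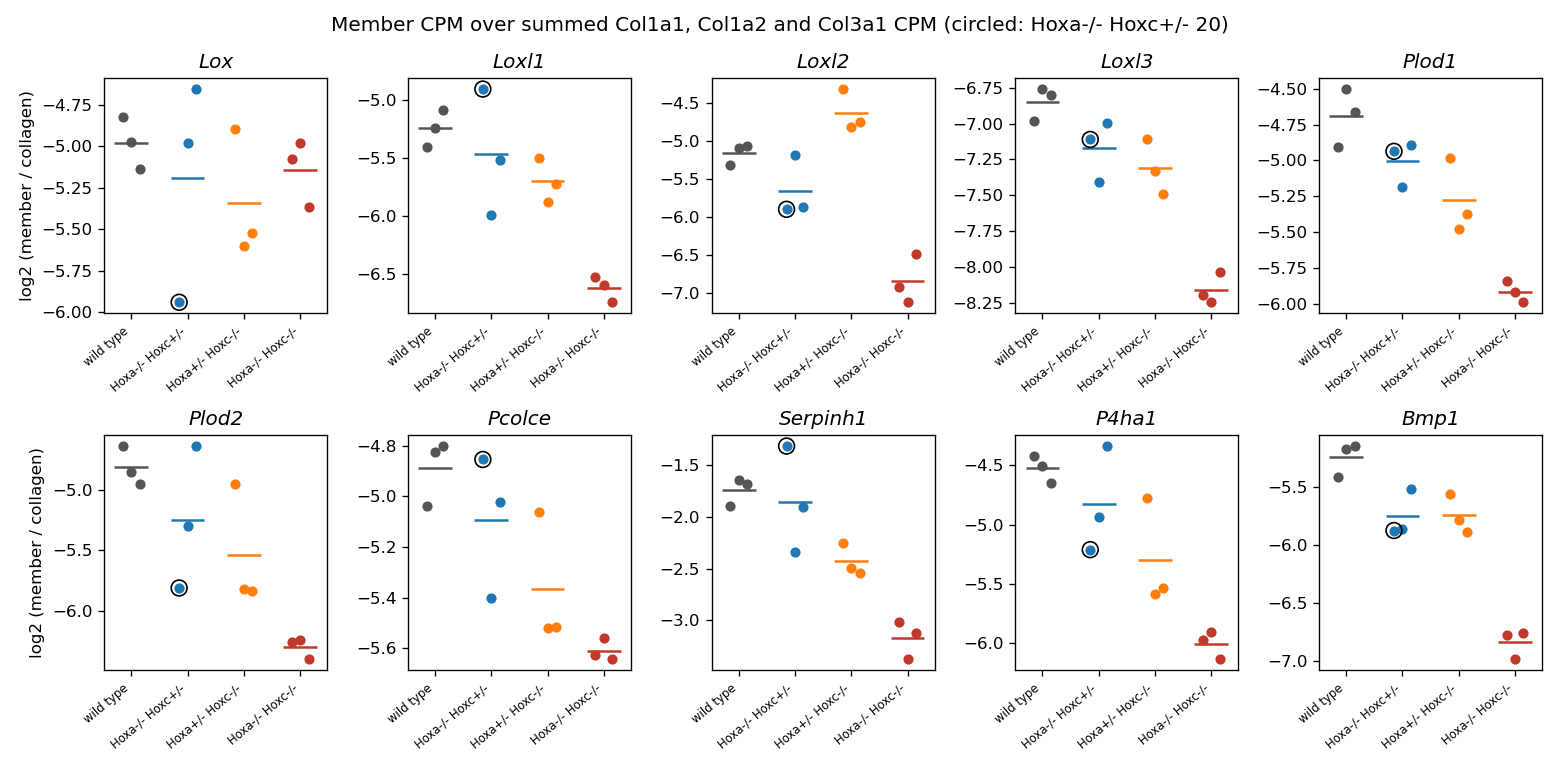
Log2 ratio of each member's CPM to the summed CPM of Col1a1, Col1a2 and Col3a1 in each library, with bars for group means and a circle around Hoxa-/- Hoxc+/- 20. In Hoxa-/- Hoxc-/- libraries 9 of the 10 members, like 94.5% of all genes, lie below all wild type libraries, and Lox overlaps.

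In Hoxa+/- Hoxc-/- against wild type kidneys 8 members were lower relative to collagen, as were 66.1% of all genes. Lox overlapped, and Loxl2 was higher by 0.53 (exact permutation p = 0.1), as were 0.478% of all genes. With Col1a1 alone as the divisor 7 members were lower (68.9% of all genes), none was higher, and Loxl2, Lox and Plod2 overlapped. In Hoxa-/- Hoxc+/- against wild type kidneys 2 members, Loxl3 and Bmp1, were lower (24.2% of all genes) and 8 overlapped. Without library 20 the lower members were 4, with Loxl1 and Serpinh1 added (39.8% of all genes), and with Col1a1 alone they were Loxl1, Loxl2 and Bmp1 (26.4% of all genes). With Col1a1 alone and library 20 kept, they were Loxl2 and Bmp1 (20.9% of all genes). In this comparison without library 20, sex and genotype cannot be told apart. Between Hoxa-/- Hoxc-/- and Hoxa-/- Hoxc+/- kidneys 9 members were lower (83.4% of all genes) and Lox overlapped (difference 0.05, exact permutation p = 1.0). Without library 20 all 10 members were lower, as were 93.8% of all genes, and the difference of Lox was -0.32. Relative to the summed level of 10 stromal markers, 1 member (Bmp1) was lower in Hoxa-/- Hoxc-/- than in wild type kidneys (4758 of 15839 genes), 4 (Lox, Loxl3, Plod1 and Pcolce) were higher (6.22% of all genes), and 5 overlapped. By that divisor 1 member (Serpinh1) was lower (21.2% of all genes) and Loxl2 higher (3.59%) in Hoxa+/- Hoxc-/- against wild type kidneys. Between Hoxa-/- Hoxc-/- and Hoxa-/- Hoxc+/- kidneys none was lower (11.2% of all genes) and Lox, Loxl3, Plod1 and Pcolce were higher (5.46%). Without library 20 none was lower by the stromal divisor (40.8% of all genes) and 5 were higher, with Loxl1 added (7.39%). With Col1a1 alone as the divisor, 9 members were lower in Hoxa-/- Hoxc-/- than in wild type kidneys (95.8% of all genes) and Lox overlapped.

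The other genes of the pathway were counted in Hoxa-/- Hoxc-/- against wild type kidneys by the same edgeR fit. Of 24 other modifying and processing genes 23 were tested, 7 rose and none fell, with a median log2 fold change of 0.29. The largest rise was that of Adamts2, the procollagen N-proteinase, from 16.1 ± 2.14 to 47.0 ± 12.8 CPM (SD; log2 fold change 1.55, SE 0.19, adjusted p = 0.00477 by edgeR), and the smallest that of the prolyl 3-hydroxylase Lepre1 (0.29, adjusted p = 0.033 by edgeR). The others that rose were P4ha2 and P4hb, which pair as the subunits of a prolyl 4-hydroxylase, Crtap, a partner of Lepre1, Adamts14, and Creb3l1, a transcription factor of collagen secretion. Of 11 fibrillar collagen genes 6 rose, from 1.06 for Col5a2 to 2.56 for Col5a3, and 3 fell, Col11a2 (-2.87), Col27a1 (-1.13) and Col24a1 (-0.81), with a median of 1.06. Of 12 other substrates and partners, such as elastic fibre proteins and small proteoglycans, 10 rose, from 0.33 for Efemp2 to 3.04 for Lum, with a median of 0.89. In Hoxa+/- Hoxc-/- against wild type kidneys the corresponding counts were 2 of 23 higher (Adamts2 and Creb3l1), 2 of 11 higher (Col3a1 and Col27a1) and 2 of 12 higher (Postn and Lum), with none lower.

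**Figure D4:**
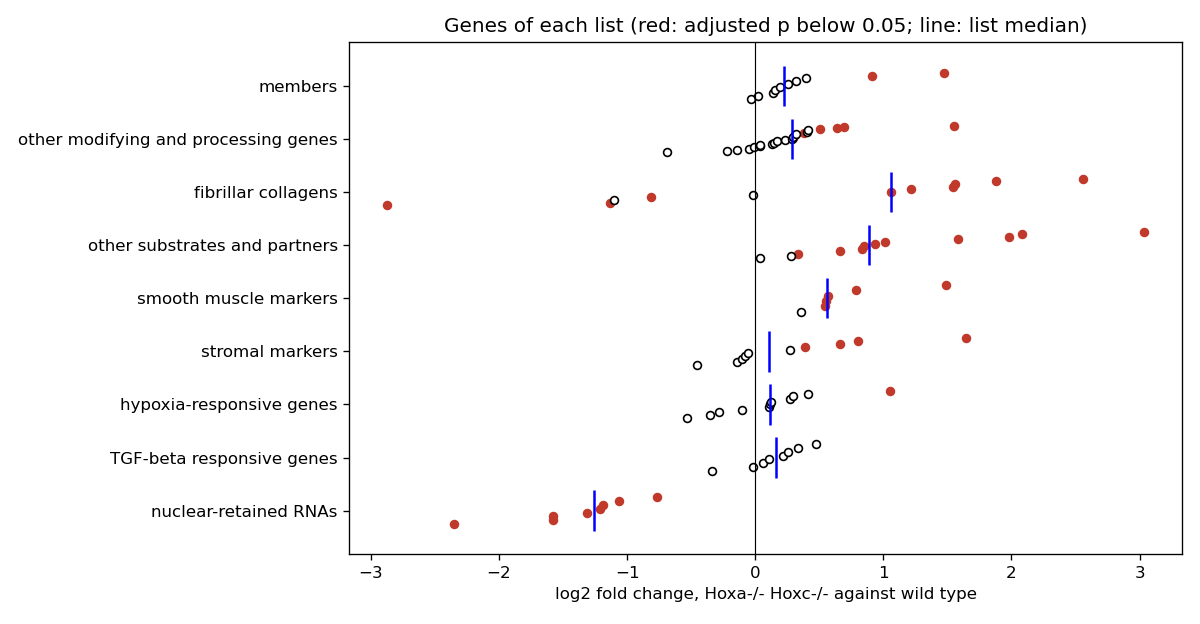
Log2 fold change of every tested gene of 9 lists in Hoxa-/- Hoxc-/- against wild type kidneys, filled where the adjusted p by edgeR was below 0.05, with a line at the list's median. The members have a median of 0.22 and the fibrillar collagens one of 1.06, with 3 collagens filled below 0.

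Markers of other cells and of RNA quality moved in the same comparison, and their part in the members' results was not tested. The stromal markers had 4 of 10 higher (Foxd1, Pdgfra, Tbx18 and Ntn1), a median of 0.11, and sums that overlapped, from 1462 to 1715 CPM in wild type and from 1655 to 1855 CPM in Hoxa-/- Hoxc-/- libraries. The smooth muscle markers had 5 of 6 higher, and sums, mostly of Acta2, from 525 to 608 CPM and from 765 to 884 CPM. Nuclear-retained RNAs fell in 8 of 8 cases, with a median of -1.26. Their sums were 393 to 498 CPM in wild type and 155 to 184 CPM in the mutants. Malat1 led these sums except in mutant 29, where Leng8 had 34.4 CPM and Malat1 28.6 CPM. Skeletal muscle and liver markers had 3 of 9 higher (Myh3, Alb and Ahsg), at sums of 4.65 to 10.2 CPM and 9.94 to 33.7 CPM. Over all 12 libraries Alb was the most abundant of these, while in each wild type library Tnnt3 exceeded it. None of these lists had a gene at 0 in every library, and 1 gene of the muscle and liver list lay below 1 CPM throughout.

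Lists of collagen-rich or neighbouring tissues and of responses known to induce members were also counted. Cartilage, tendon and skin markers had 6 of 8 tested, 1 lower (Scx, a tendon factor) and none higher, at sums of 19.5 to 32.3 CPM in wild type and 12.5 to 23.3 CPM in Hoxa-/- Hoxc-/- libraries. Adrenal and gonad markers had 3 of 8 tested and none past the threshold, with sums, led by Star, of 11.3 CPM in Hoxa-/- Hoxc-/- 29 and 4.07 to 5.88 CPM in the other 11 libraries, and their part in the result was not tested. Of 11 hypoxia-responsive genes 1 rose (Adm, log2 fold change 1.05, SE 0.15, adjusted p = 0.00688 by edgeR), with a median of 0.11, and of 8 genes responsive to TGF-beta none passed, with a median of 0.16. In Hoxa+/- Hoxc-/- against wild type kidneys, where Loxl2 rose, the lists' changes were fewer, with 1 stromal (Ntn1), 1 smooth muscle (Myocd) and 1 nuclear-retained (Meg3) gene higher and none lower, and their part in that rise was not tested.

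The genes whose log2 CPM followed each member most closely were found over the 9 libraries of the run that held wild type, among 16260 genes, by Pearson correlation as a description. These libraries share a run and hold 3 genotypes, so any gene that differs between genotypes can rank high. For Lox they were Vwa5a (r = 0.987), Thbs2 (0.986) and Akt2 (0.984), and for Pcolce Thra (0.997), Sparc (0.997), which encodes a collagen-binding matrix protein, and Ptrf (0.989). Plod1 was nearest to Cyth4 (0.983), Loxl3 to Anxa6 (0.966) and Fbln1 (0.965), and P4ha1 to Pdk1 (0.979), a hypoxia-responsive kinase of the list above. Loxl2 had no gene above 0.890 (Noxo1, 0.912 without library 20), the lowest leading value of the members, and Bmp1 had 0.936 with Obsl1. The leading genes of Loxl1 (Lmo2, r = 0.99), Plod2 (Aph1c, 0.994) and Serpinh1 (Sh3bgrl, 0.990) had r of 0.977, 0.984 and 0.953 without library 20.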

How the data were processed

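The deposited expected counts per gene, which are not whole, were made by the authors from paired reads aligned to mm10, after removal of reads that aligned at more than 1 position. Their analysis used Strand NGS, and how reads were assigned to genes was not stated. The deposited log2 normalized values were made by the authors from the same reads, by a method not stated, and are centred on each gene's median. No column of per-sample values was left unused. Expected counts were rounded and tested per pair of groups (6 libraries) with edgeR 4.0.16 quasi-likelihood, filterByExpr (minimum count 10, minimum total 15), TMM factors and Benjamini-Hochberg adjustment at 0.05. Fold changes are edgeR's, with a prior count of 0.5 for log2 CPM. CPM were on a TMM scale of all 12 libraries. DESeq2 1.42.0, limma 3.58.1 (on the log2 values), R 4.3.3, Python 3.11.15 and scipy 1.17.1 were also used. Levels per kilobase used exon lengths of GENCODE M21. The members and lists were chosen by name with earlier results of these data known. The code was first tested on simulated data. Alternatives changed the factors, filter, test, libraries in the fit, covariate, values and replicates.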

Additional observations from a re-analysis of the deposited data

Results flagged for a closer look

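Between Hoxa+/- Hoxc-/- and Hoxa-/- Hoxc-/- kidneys, 4 of the 10 members and 19.1% of 15889 genes differed by edgeR, in a comparison chosen after the data were seen and made across sequencing runs. This is a test of the difference between the 2 mutant groups. In Hoxa+/- Hoxc-/- relative to Hoxa-/- Hoxc-/- kidneys, Lox had a log2 fold change of -1.21 (SE 0.15, adjusted p = 0.0032 by edgeR) and Pcolce one of -0.76 (SE 0.10, adjusted p = 0.00373 by edgeR), while Loxl2 had 1.19 (SE 0.15, adjusted p = 0.00351 by edgeR). Each of these passed in 8 of 8 alternatives and in 6 of 6 fits without a library. Plod1 had -0.36 (SE 0.09, adjusted p = 0.0335 by edgeR) and passed in 5 of 8 alternatives and 2 of 6 fits without a library. Nuclear-retained RNAs were higher in 8 of 8 cases (median 1.32), smooth muscle markers lower in 4 of 6 and stromal markers lower in 2 of 10, and their part in the result was not tested. Genotype and run cannot be told apart here.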

How the results depend on the processing

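Of the members' results under the alternatives, 652 kept their direction and their side of the threshold, 22 gained a call, 9 lost one and 47 reversed in sign, and no reversed value had passed. A gained or lost call need not be a larger or smaller fold change. The fit of all libraries except Hoxa-/- Hoxc+/- 20, and the comparison of Hoxa+/- Hoxc-/- with Hoxa-/- Hoxc-/-, were chosen after the data were seen. So were the overlap calls and the ratios to collagen or to stromal markers without library 20. No paired analysis was possible because the labels' replicate numbers differ between groups. Where a value moved, the cause was not tested.

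For Hoxa-/- Hoxc-/- against wild type, the 2171 genes called became 3380 by DESeq2, 1190 with all 12 libraries, 690 with the 9 libraries of 1 run, 984 with all 12 and Xist as a covariate (called the Xist fit below), 1215 by limma, 3224 of 16452 with all libraries except 20 and 535 to 3386 without a library. The 2 members called became 4 by DESeq2 and 4 with all libraries except 20. Bmp1 reversed to -0.038 with library size only and to -0.011 in the Xist fit. Without a library Loxl2 ranged from -0.23 to 0.068 and Bmp1 from -0.043 to 0.084.

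For Hoxa-/- Hoxc+/- against wild type, 0 genes became 22 by DESeq2, 2 with all 12 libraries, 1 by limma, 4 with all libraries except 20 and 0 to 8 without a library. In the Xist fit, Lox was -0.024 and P4ha1 -0.015. With library size only, Loxl3 was -0.065, Plod1 -0.057 and P4ha1 -0.022. With all libraries except 20, Loxl1 was -0.213, Loxl2 0.03, Loxl3 -0.061, Plod1 -0.055, Plod2 0.139, Pcolce -0.028 and Serpinh1 -0.089. Without a library Loxl1 ranged from -0.22 to 0.37, Loxl2 from -0.46 to 0.14, Loxl3 from -0.067 to 0.08, Plod1 from -0.063 to 0.15, Plod2 from -0.24 to 0.13, Pcolce from -0.035 to 0.25, Serpinh1 from -0.10 to 0.46 and P4ha1 from -0.068 to 0.17.

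For Hoxa+/- Hoxc-/- against wild type, 376 genes became 1309 by DESeq2, 149 with all 12 libraries, 124 in the Xist fit, 158 by limma, 976 with all libraries except 20 and 60 to 549 without a library. The 1 member became 0 with all 12 libraries and 0 in the Xist fit, which also holds all 12. Serpinh1 reversed to 0.05 in the Xist fit, and Plod1 ranged from -0.076 to 0.14 without a library.

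For Hoxa-/- Hoxc-/- against Hoxa-/- Hoxc+/-, 0 genes became 1 with all genes of at least 1 count, 554 by DESeq2, 540 with all 12 libraries, 181 with 9 libraries, 646 in the Xist fit, 1 by limma, 1203 with all libraries except 20 and 0 to 687 without a library. The 0 members became 2 by DESeq2, 2 with all 12 libraries, 2 in the Xist fit, 5 with all libraries except 20 and 0 to 4 without a library. With all libraries except 20, Loxl2 was -0.066, Plod2 -0.001, Serpinh1 0.28 and P4ha1 -0.028. Without a library Loxl1 ranged from -0.10 to 0.49, Loxl2 from -0.17 to 0.44 and Serpinh1 from -0.26 to 0.31.

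For Hoxa+/- Hoxc-/- against Hoxa-/- Hoxc-/-, 3027 genes became 1944 with all 12 libraries and 888 to 3441 without a library, and Loxl1 ranged from -0.19 to 0.001. The 4 members called became 3 to 5, as Serpinh1 gained a call in 2 of 8 alternatives, Plod1 lost its call in 3 of 8 alternatives and 4 of 6 fits without a library, and Plod2 gained one in 1 of these. Relative to collagen, 9 members lower in Hoxa-/- Hoxc-/- than in wild type kidneys (94.5% of all genes) became 1 with stromal markers as the divisor (4758 of 15839 genes).

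Groups held 3 libraries, and sex was not balanced between them. In Hoxa-/- Hoxc+/- against wild type without library 20, sex and genotype cannot be told apart. Hoxa+/- Hoxc-/- differed from the rest in run as well as genotype. The labels and the study's text differ on the Hoxa11 alleles of the Hoxa-/- Hoxc-/- libraries. Whether counting used strand was not stated. RNA was from whole kidney, and protein, enzyme activity and crosslinks were not analysed here.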

Other observations

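In Hoxa-/- Hoxc+/- 20, Hoxc10 had 121 CPM and Hoxc9 32.7 CPM. In wild type and the remaining Hoxa-/- Hoxc+/- kidneys Hoxc10 lay between 41.6 and 66.9 CPM, and Hoxc9 between 11.4 and 15.6 CPM.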
